A study of Homo sapiens with 6 samples.

Results

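The ERBB receptors and their ligands were followed through 3 human cell lines, each given as a lung cancer line in its labels, as 10 genes, chosen by name from the 19903 genes of each deposited table. They comprise the 4 receptor genes EGFR, ERBB2, ERBB3 and ERBB4, the 4 genes for EGFR-binding ligands AREG, EREG, HBEGF and TGFA, and the neuregulin genes NRG1 and NRG2. Transcript levels came from RNA sequencing of cells that carried a vector for malin or an empty vector. Malin, the product of NHLRC1, is an E3 ubiquitin ligase that works with the glycogen phosphatase laforin. The 6 libraries were, at passage 5, the line labelled H2030 with malin and with empty vector, A549 with malin and with empty vector, and H1299 with malin and with empty vector. A549 and H1299 are established non-small-cell lung cancer lines, H2030 is a lung adenocarcinoma line, and no line was replicated within a vector. The sources used here do not name the promoter of the vector or say whether the cells were clones.

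ERBB receptors are tyrosine kinases of the cell surface that pair with each other when a ligand binds. EGFR is a receptor of amphiregulin, epiregulin, TGF-alpha and HB-EGF, while neuregulins bind ERBB3 and ERBB4. ERBB2 has no known ligand of its own and acts as the preferred partner of the others, and ERBB3 has very weak kinase activity and signals through its partners. Most ligands are made as membrane proteins and are freed by metalloproteases, after which the receptors feed the RAS-ERK and PI3K-AKT cascades. The pathway is a known driver in lung adenocarcinoma.

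Levels are FPKM, fragment numbers divided by transcript length and by the total of the library, so they can be set side by side between genes. Depth was estimated at 8300000 to 10700000 fragments per library, and 11861 to 13179 genes reached 1 FPKM. NHLRC1, the gene carried by the vector, was higher with malin in 3 of 3 lines, by 1.99 on the log2(FPKM + 1) scale in the pair labelled H2030, 1.82 in A549 and 4.96 in H1299. The column header of the malin library labelled H2030 names another line, the kidney-derived HEK293T, so the line differences of the 9 genes tested are also given without it. Summed keratins and other carcinoma markers (8 genes) reached 160.4 and 184.8 FPKM in the malin and empty-vector libraries labelled H2030, 3215 and 3918 FPKM in A549, and 953.1 and 953.0 FPKM in H1299. Of 7 lung lineage markers 5 were listed, with sums of 0.52 to 4.44 FPKM. NKX2-1, a defining lung factor, was listed at 0 in both A549 libraries. With malin and empty vector it was 0.6 and 0.77 FPKM in H1299. Its highest levels, 3.78 and 1.85 FPKM, were those of labelled H2030. The 6 neuronal markers summed to 97.98 and 74.16 FPKM with malin and empty vector in labelled H2030, 199.2 and 165.5 FPKM in A549, and 256.2 and 244.6 FPKM in H1299. They split by line. In labelled H2030, NEFM was 52.62 and 30.53 FPKM and NEFL 31.69 and 23.43 FPKM, and both were highest there. TUBB3 (7.24 and 10.29 FPKM) and INA (6.12 and 9.3 FPKM) were lowest there. NEFH was highest in H1299, at 8.77 and 7.2 FPKM, and STMN2 was 0.17 FPKM or less in every library. KRT19 was listed at 0 in both libraries labelled H2030, and KRT7 at 0.12 and 0.66 FPKM. H1299 was similarly low, with KRT19 at 0 and 0.07 FPKM and KRT7 at 1.24 and 1.09 FPKM (malin and empty vector). Among the same carcinoma markers, KRT8, KRT18 and CLDN4 were also lowest in labelled H2030. EPCAM (5.41 and 8.55 FPKM) and CLDN7 (1.46 and 1.54 FPKM) were instead highest there. With malin and empty vector, CDH1 was 2.71 and 2.56 FPKM in labelled H2030, 1.67 and 3.27 FPKM in A549, and 0 and 0.02 FPKM in H1299. The summed level ran from 2.38 to 5.26 FPKM for the 5 of 6 immune markers in the tables, and from 0.32 to 15.29 FPKM for 7 fibroblast and endothelial markers. The part of these markers in the results was not tested.

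Positions are from RefSeq's annotation of GRCh38.p14, the assembly release that matches hg38. EREG (chr4:74365145-74388749) and AREG (chr4:74445136-74455005) are neighbours separated by 56.4 kb, between EPGN (chr4:74308470-74316789) and BTC (chr4:74744759-74794523), which encode further EGFR ligands. NRG2 (chr5:139846781-140043299) and HBEGF (chr5:140332843-140346603) lie 289.5 kb apart. EGFR spans chr7:55019017-55211628, ERBB2 chr17:39688094-39728658, ERBB3 chr12:56080108-56103505, ERBB4 chr2:211375717-212538802 and TGFA chr2:70447284-70553826.

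The windows before the annotated starts are shown for EGFR and for AREG and EREG, its neighbouring ligand genes, which had the widest differences between lines. RefSeq promoter windows matched 8 of the 10 genes. The 250 bases before the start are printed on the plus strand, 5′ to 3′, from chr4:74444886-74445135 for AREG, chr4:74364895-74365144 for EREG and chr7:55018767-55019016 for EGFR. Capitals mark matches, on either strand, to TGACGTCA (a cyclic AMP response element), TGANTCA (an AP-1 site), TATAAA (a core promoter element) and GGGCGG (a GC box), and no marked matches overlap.
AREG: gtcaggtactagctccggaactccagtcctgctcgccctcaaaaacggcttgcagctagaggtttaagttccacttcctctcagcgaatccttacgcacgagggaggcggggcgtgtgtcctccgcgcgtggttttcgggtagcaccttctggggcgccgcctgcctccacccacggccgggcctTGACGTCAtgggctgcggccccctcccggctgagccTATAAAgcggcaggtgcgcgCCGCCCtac
EREG: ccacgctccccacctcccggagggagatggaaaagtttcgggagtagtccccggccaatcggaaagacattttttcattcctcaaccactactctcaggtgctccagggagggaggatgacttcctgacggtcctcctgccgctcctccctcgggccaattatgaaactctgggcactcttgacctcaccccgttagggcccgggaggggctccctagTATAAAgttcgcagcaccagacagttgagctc
EGFR: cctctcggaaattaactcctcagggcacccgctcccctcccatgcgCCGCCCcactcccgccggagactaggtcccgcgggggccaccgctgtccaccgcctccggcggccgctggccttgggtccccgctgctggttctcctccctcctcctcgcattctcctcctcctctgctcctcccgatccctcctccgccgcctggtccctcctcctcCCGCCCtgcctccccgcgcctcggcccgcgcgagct

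With positions counted from the annotated start and negative before it, AREG held TGACGTCA from -65, TATAAA from -29 and a reverse-strand GC box from -9. EREG held TATAAA from -32, and EGFR held reverse-strand GC boxes from -204 and -36 with no TATAAA. Among 35116 RefSeq windows of 250 bases, 1.65% held TGACGTCA, 6.57% TGANTCA, 10.72% TATAAA and 42.64% GGGCGG. Of the other 5 matched genes, HBEGF held 5 GC boxes, TGFA 3, NRG2 1 and ERBB4 1, and ERBB2 held 1 AP-1 match and no GC box. The windows were 65.2% GC for AREG, 58.0% for EREG and 73.6% for EGFR. A match is a string of letters and was not tested as a binding site.

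The first comparison asked how the receptors and ligands differed between the lines. Log2(FPKM + 1) was fitted with limma across 12184 protein-coding genes with a mean of at least 1 FPKM, with the vector as a term and Benjamini-Hochberg adjustment at 0.05. Differences are given on that scale, where the pseudocount of 1 shrinks the differences of low genes. The 3 contrasts share libraries, and only 2 degrees of freedom were left for the residual. The 2 libraries of a line differ in vector, so neither repeats the other, and no label calls their cultures independent. With line and vector both as terms, the residual is how far the vector difference varied between lines. The p-values rest on that spread and hold no measure of the spread between repeat cultures of a line. Of the 10 genes 9 passed the filter, AREG and EREG through A549 alone and ERBB3 through labelled H2030 alone, and ERBB4 did not. Against A549, the line labelled H2030 had 2 genes higher, 5 lower and 2 not past the threshold, where 67% of all genes tested passed. Against H1299 it had 2 higher, 4 lower and 3 not past it, where 64.7% of all genes passed, and A549 against H1299 had 5 higher, 3 lower and 1 not past it, where 61.6% passed. The shares of all genes that passed as higher and as lower were 45% and 22.1% for labelled H2030 against A549, 40.9% and 23.8% for labelled H2030 against H1299, and 27.2% and 34.5% for A549 against H1299. With most genes differing between lines, the number of genes called says little about the family, and the sizes and directions carry the description. The median difference of all genes was 0.29 for labelled H2030 minus A549, 0.22 for labelled H2030 minus H1299 and -0.09 for A549 minus H1299.

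**Figure D1:**
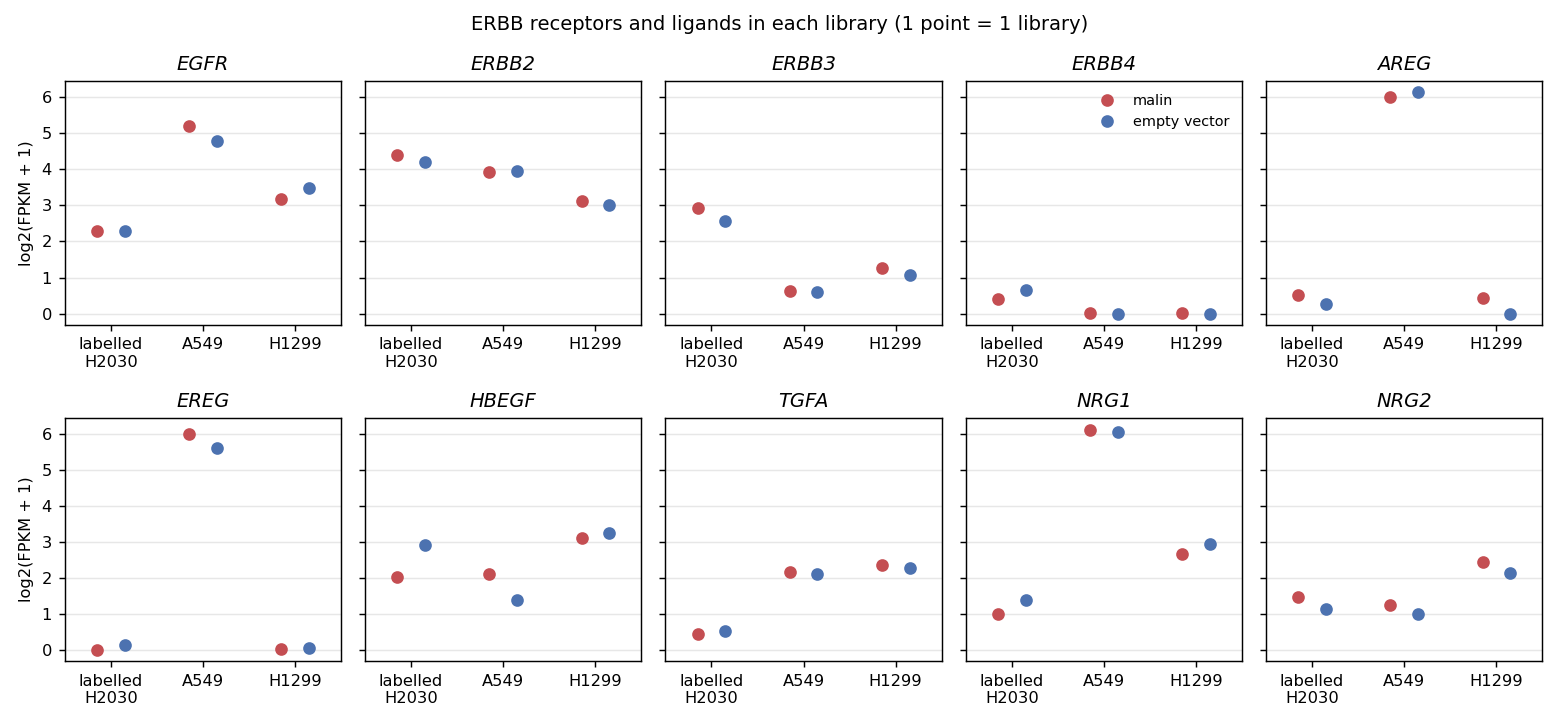
Level of each of the 10 genes, as log2(FPKM + 1), in each line (x axis) with malin (red, left) and empty vector (blue, right), 1 point per library. AREG, EREG and NRG1 stand at 47.39 to 69.38 FPKM in A549 and at 6.66 FPKM or less in the other lines, while ERBB3 is highest in the line labelled H2030.

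EGFR was highest in A549 and lowest in the line labelled H2030. It stood at 3.89 and 3.92 FPKM in the malin and empty-vector libraries labelled H2030, at 35.98 and 26.6 FPKM in A549, and at 8.1 and 10.09 FPKM in H1299. The 3 lines did not overlap, and their means were 3.91 ± 0.021, 31.3 ± 6.63 and 9.10 ± 1.41 FPKM in that order (SD, n = 2 each). EGFR was lower in labelled H2030 than in A549 by a difference of -2.70 ± 0.19 (SE; limma adjusted p = 9.31e-05) and lower than in H1299 by -1.03 ± 0.19 (adjusted p = 0.00374). It was higher in A549 than in H1299 by 1.67 ± 0.19 (adjusted p = 0.000679). In bulk libraries, fewer cells that express a gene and less RNA per cell cannot be told apart. Among all genes tested in a library, EGFR ranked at the 81.4 and 75.1 percentiles in A549 with malin and empty vector, and at the 19.6 and 18.7 percentiles in labelled H2030.

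ERBB2, the co-receptor, followed another order and varied less. It reached 19.89 and 17.25 FPKM in the malin and empty-vector libraries labelled H2030, 14.2 and 14.58 FPKM in A549, and 7.78 and 7.13 FPKM in H1299. Labelled H2030 exceeded H1299 by 1.21 ± 0.12 (limma adjusted p = 0.000354), and A549 exceeded H1299 by 0.87 ± 0.12 (adjusted p = 0.00157). The difference of labelled H2030 from A549 was 0.34 ± 0.12 (adjusted p = 0.0438), which is 0.06 above the median of all genes in that contrast. That call was lost without the malin library labelled H2030 (0.26, adjusted p = 0.0854) and without any 1 library of A549 or H1299 (difference 0.25 to 0.44, adjusted p = 0.114 to 0.356). Under median-of-ratios scaling its sign turned (-0.03).

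ERBB3, which carries neuregulin signals together with ERBB2, was highest in the line labelled H2030. Its level was 6.58 and 4.95 FPKM in the malin and empty-vector libraries labelled H2030, 0.53 and 0.51 FPKM in A549, and 1.41 and 1.09 FPKM in H1299. The line labelled H2030 exceeded A549 by 2.14 ± 0.15 (limma adjusted p = 0.0001) and H1299 by 1.58 ± 0.15 (adjusted p = 0.000308). Without the malin library labelled H2030 those differences were 2.03 and 1.46. ERBB3 passed the filter through labelled H2030 alone, so the p-values of those differences are no separate support for the high level there. A549 was lower than H1299 by -0.56 ± 0.15 (adjusted p = 0.0193). That call was lost when any single library of A549 or H1299 was left out, with adjusted p from 0.0573 to 0.177, and its difference stayed below 0 there, between -0.69 and -0.43.

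ERBB4, the other neuregulin receptor, was listed at 0.33 and 0.57 FPKM in the malin and empty-vector libraries labelled H2030, 0.01 and 0 FPKM in A549, and 0.02 and 0 FPKM in H1299. At its longest transcript the levels in labelled H2030 correspond to an estimated 39.3 and 56.9 fragments. The A549 and H1299 malin libraries correspond to 1.25 and 2.38 fragments, so the levels there are at or under the 3 fragments that a count of 0 allows. The mean of 0.155 FPKM kept ERBB4 out of the fit, and it has no test.

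The make-up of the receptor messages differed accordingly. EGFR was 12.7% and 14.7% of summed receptor FPKM in the malin and empty-vector libraries labelled H2030, 70.9% and 63.8% in A549, and 46.8% and 55.1% in H1299. ERBB2 was 64.8% and 64.6% in labelled H2030, 28.0% and 35.0% in A549, and 45.0% and 38.9% in H1299. ERBB3 made up 21.4% and 18.6% in labelled H2030, 1.05% and 1.22% in A549, and 8.15% and 5.95% in H1299. EGFR thus exceeded ERBB2 in both A549 and both H1299 libraries, with ratios of 2.53 and 1.82 in A549 and 1.04 and 1.42 in H1299 for malin and empty vector, whereas in labelled H2030 the ratios were 0.196 and 0.227.

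**Figure D2:**
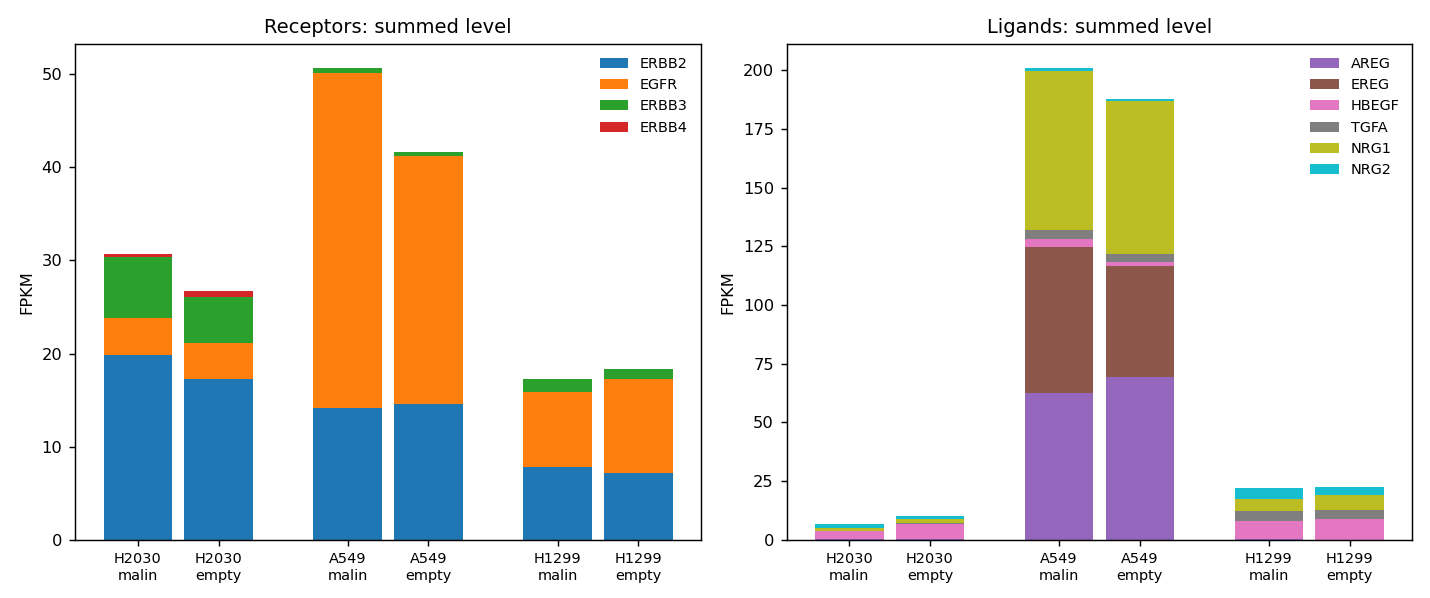
Summed FPKM of the 4 receptor genes (left) and of the 6 ligand genes (right) in each library, coloured by gene, with the malin library left of the empty-vector library of each line. Receptor sums lie between 17.31 and 50.72 FPKM, and ligand sums between 6.68 and 22.53 FPKM outside A549 and at 201.1 and 187.8 FPKM in A549 with malin and empty vector.

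Amphiregulin (AREG) and epiregulin (EREG) were abundant in A549 and nearly absent elsewhere. AREG was listed at 0.44 and 0.21 FPKM in the malin and empty-vector libraries labelled H2030, at 62.69 and 69.38 FPKM in A549, and at 0.35 and 0 FPKM in H1299. EREG stood at 0 and 0.11 FPKM in labelled H2030, 62.22 and 47.39 FPKM in A549, and 0.02 and 0.04 FPKM in H1299. Both A549 libraries lay far above the other 4 for each gene, and in those 4 the levels rest on an estimated 0 to 5 fragments. Summed over the libraries of a line, AREG had an estimated 1550 fragments in A549 against 7 in labelled H2030, a depth-corrected ratio of 196 (95% exact interval 94.7 to 487), and against 4 in H1299, a ratio of 388 (interval 151 to 1.42e+03). For EREG the estimated 5100 fragments in A549 stood against 4 in labelled H2030, a ratio of 1.13e+03 (interval 440 to 4.14e+03), and against 3 in H1299, a ratio of 1.7e+03 (interval 581 to 8.25e+03). The intervals cover counting error only.

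In the fit, AREG was lower in labelled H2030 than in A549 by -5.66 ± 0.18 (limma adjusted p = 9.42e-06) and EREG by -5.71 ± 0.18 (adjusted p = 9.22e-06). A549 exceeded H1299 by 5.85 ± 0.18 for AREG (adjusted p = 9.31e-06) and by 5.75 ± 0.18 for EREG (adjusted p = 9.38e-06). Both genes passed the filter through A549 alone, so these p-values are no separate support for the high level there. Labelled H2030 and H1299 differed by 0.18 in AREG (adjusted p = 0.399) and 0.03 in EREG (adjusted p = 0.883), with both lines close to the limit of this depth. In A549 the genes ranked among the more abundant, AREG at the 89.9 and 91.2 percentiles and EREG at the 89.9 and 86.4 percentiles of the genes tested with malin and empty vector.

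TGFA, the gene for TGF-alpha, was lower in the line labelled H2030 than in the other lines. It stood at 0.37 and 0.46 FPKM in the malin and empty-vector libraries labelled H2030, 3.53 and 3.35 FPKM in A549, and 4.11 and 3.82 FPKM in H1299. Labelled H2030 was lower than A549 by -1.65 ± 0.14 (limma adjusted p = 0.000183) and lower than H1299 by -1.81 ± 0.14 (adjusted p = 0.000144). A549 minus H1299 was -0.16 ± 0.14 (adjusted p = 0.352), not past the threshold, though the libraries of these lines did not overlap.

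HBEGF, the gene for heparin-binding EGF, had the largest SE of the 9 genes in the fit. It was 3.07 and 6.51 FPKM in the malin and empty-vector libraries labelled H2030, 3.32 and 1.64 FPKM in A549, and 7.59 and 8.6 FPKM in H1299. The H1299 libraries were the highest and the ranges of the other lines overlapped. A549 was lower than H1299 by -1.43 ± 0.35 (limma adjusted p = 0.0145). That call was lost without the empty-vector library of A549 (-0.81, adjusted p = 0.0797) and without either H1299 library (adjusted p = 0.0718 and 0.0815). Labelled H2030 minus A549 was 0.71 ± 0.35 (adjusted p = 0.121) and labelled H2030 minus H1299 was -0.72 ± 0.35 (adjusted p = 0.122). The difference from A549 was 1.29 (adjusted p = 0.00258) without the malin library labelled H2030 and 1.33 (adjusted p = 0.015) without the A549 malin library. It was 0.13 (adjusted p = 0.663) without the empty-vector library labelled H2030 and 0.09 (adjusted p = 0.813) without the A549 empty-vector library. The difference from H1299 was -0.14 (adjusted p = 0.651) without the malin library labelled H2030 and -1.30 (adjusted p = 0.00268) without the empty-vector library labelled H2030.

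Among the neuregulins, NRG1, the main ligand gene for ERBB3 and ERBB4, was highest in A549, with 1.0 and 1.61 FPKM in the malin and empty-vector libraries labelled H2030, 67.97 and 65.0 FPKM in A549, and 5.42 and 6.66 FPKM in H1299. No line overlapped another. It was lower in labelled H2030 than in A549 by -4.88 ± 0.15 (limma adjusted p = 9.22e-06) and than in H1299 by -1.62 ± 0.15 (adjusted p = 0.000277), and A549 exceeded H1299 by 3.27 ± 0.15 (adjusted p = 3.15e-05). NRG2, a less widely expressed neuregulin, was 1.8 and 1.21 FPKM in labelled H2030, 1.4 and 1.0 FPKM in A549, and 4.42 and 3.41 FPKM in H1299. It was lower in labelled H2030 than in H1299 by -0.97 ± 0.13 (adjusted p = 0.00133) and lower in A549 than in H1299 by -1.16 ± 0.13 (adjusted p = 0.000811). The labelled H2030 minus A549 difference was 0.18 ± 0.13 (adjusted p = 0.269), and its sign turned under median-of-ratios scaling (-0.04) and under quantile normalization (-0.44, adjusted p = 0.0401).

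Without the malin library labelled H2030, the calls of the other genes against A549 and H1299 kept their direction and their side of the threshold. EGFR differed by -2.66 from A549 and -0.996 from H1299, and ERBB2 by 1.13 from H1299. AREG differed by -5.72 from A549 and 0.13 from H1299 (limma adjusted p = 0.579 for the second), and EREG by -5.55 and 0.20 (adjusted p = 0.345 for the second). TGFA differed by -1.57 and -1.73, NRG1 by -4.74 and -1.47, and NRG2 by 0.15 (adjusted p = 0.367) and -1.01, from A549 and H1299 in that order. The line labelled H2030 rests there on its empty-vector library alone, which is assumed to vary like the others. Whether that library is of the labelled line was not tested.

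**Figure D3:**
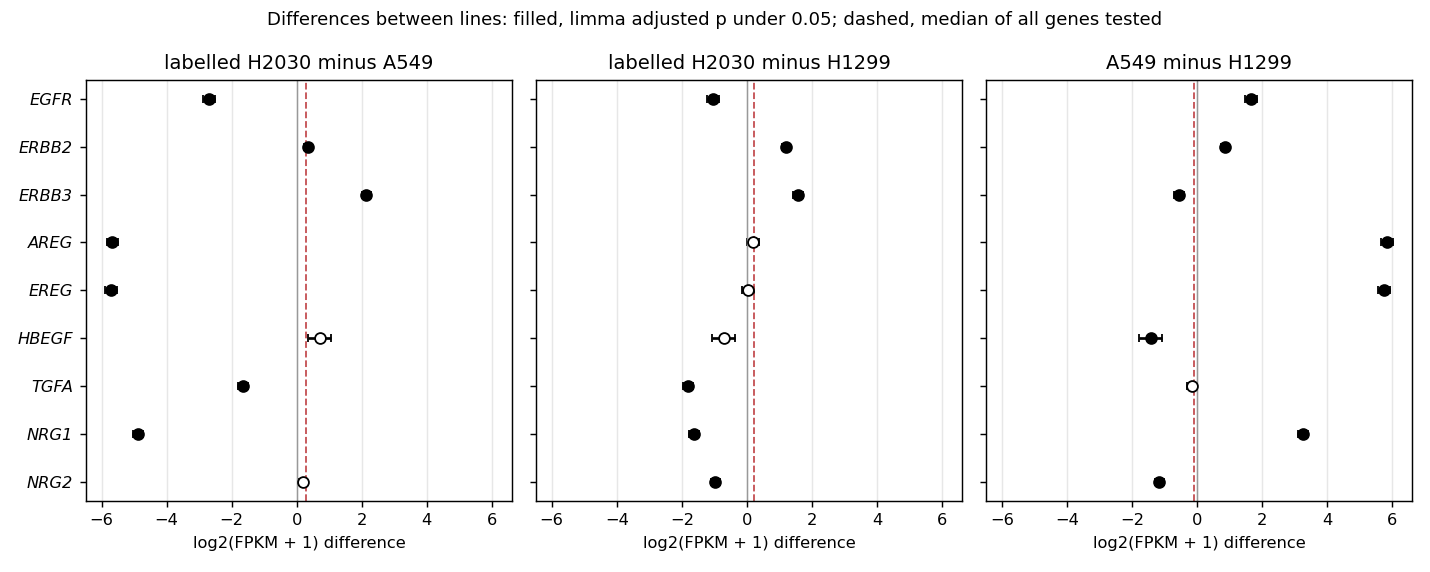
Differences between lines for the 9 genes in the fit, on the log2(FPKM + 1) scale, with SE bars, for labelled H2030 minus A549, labelled H2030 minus H1299 and A549 minus H1299. Filled points had a limma adjusted p under 0.05, and the dashed line is the median of all genes tested; AREG, EREG and NRG1 lie at -5.66, -5.71 and -4.88 in the first contrast.

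Ligand and receptor messages were balanced differently in the 3 lines. The summed FPKM of the ligand genes among the 10 was 0.218 and 0.379 times the summed receptor FPKM in the malin and empty-vector libraries labelled H2030, 3.97 and 4.50 times in A549, and 1.27 and 1.23 times in H1299. HBEGF made up 46.0% and 64.4% of that ligand FPKM in labelled H2030, 1.65% and 0.874% in A549, and 34.6% and 38.2% in H1299. The 5 other EGF-family ligand genes lie outside these sums. They summed to 4.67 and 4.38 FPKM in labelled H2030 with malin and empty vector. Their sums were 2.76 and 1.52 FPKM in A549 and 0.92 and 0.79 FPKM in H1299. A549 carried the highest EGFR level together with the highest AREG, EREG and NRG1 levels, and it carried the lowest ERBB3 level. These sums add messages of different receptor affinity and say nothing of protein.

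The genes closest to EGFR across the 6 libraries, by the mean absolute distance of their centred log2(FPKM + 1), were UBASH3B (0.117), CLVS1 (0.134), GALNT10 (0.147), RPL22L1 (0.162) and ADAM9 (0.162). ADAM9, a metalloprotease gene, stood at 26.01 and 22.24 FPKM in the malin and empty-vector libraries labelled H2030, 128.77 and 121.55 FPKM in A549, and 46.66 and 48.51 FPKM in H1299. Closest to ERBB3 were BMF (0.0609), SLC25A4 (0.0687), MPP7 (0.0754), GDPD1 (0.0765) and RTKN2 (0.0766). BMF reached 6.3 and 4.54 FPKM in labelled H2030, 0.39 and 0.43 FPKM in A549, and 1.01 and 0.82 FPKM in H1299.

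The second comparison asked whether malin changed these genes. In the fit with cell line as a block, 0 of the 9 genes and 0 of 12184 genes passed an adjusted p of 0.05 (percent passed 0), while 213 genes (1.75%) had an unadjusted p under 0.05. Of the 9 genes, NRG2 alone was among those 213, with malin minus empty vector of 0.30 ± 0.11 (limma adjusted p = 0.927, unadjusted p = 0.0347). NRG2 was higher with malin in 3 of 3 lines, by 0.34 in labelled H2030, 0.26 in A549 and 0.30 in H1299. ERBB3 was higher in 3 of 3 lines too, by 0.35, 0.02 and 0.21 in that order of lines, with a mean of 0.19 ± 0.12 (SE; limma adjusted p = 0.927). In A549 ERBB3 was nearly equal with malin and empty vector, at 0.53 and 0.51 FPKM. Those levels are an estimated 5.11 and 4.82 fragments at its shortest transcript and 32.1 and 30.3 at its longest. In the pair labelled H2030, vector and line cannot be told apart, as the header of its malin library names another line. For each of these 2 genes the exact paired permutation test, two-sided over 3 lines, gave p = 0.25, the smallest it can give. The other 7 genes had mean differences from -0.19 for NRG1 to 0.18 for AREG, with adjusted p from 0.927 to 0.988. The estimated depth gives NRG2 only 24.5 to 107 fragments per library at its shortest transcript.

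EGFR itself did not move one way with malin. Its malin minus empty vector difference was -0.0088 in labelled H2030, 0.42 in A549 and -0.29 in H1299, with a mean of 0.04 ± 0.15 (SE; limma adjusted p = 0.973; exact paired permutation p = 1.0). Among all genes tested in the same line, those differences ranked at the 52.2, 98.1 and 1.9 percentiles. Summed receptors differed by 0.19, 0.28 and -0.08 in the 3 lines (exact paired p = 0.5). Summed EGFR ligands differed by -0.76, 0.11 and -0.04 (exact paired p = 0.75), and summed neuregulins by -0.0076, 0.07 and -0.03 (exact paired p = 1.0). Leaving out the pair labelled H2030, 0 of the 9 genes passed and the EGFR mean was 0.07.

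**Figure D4:**
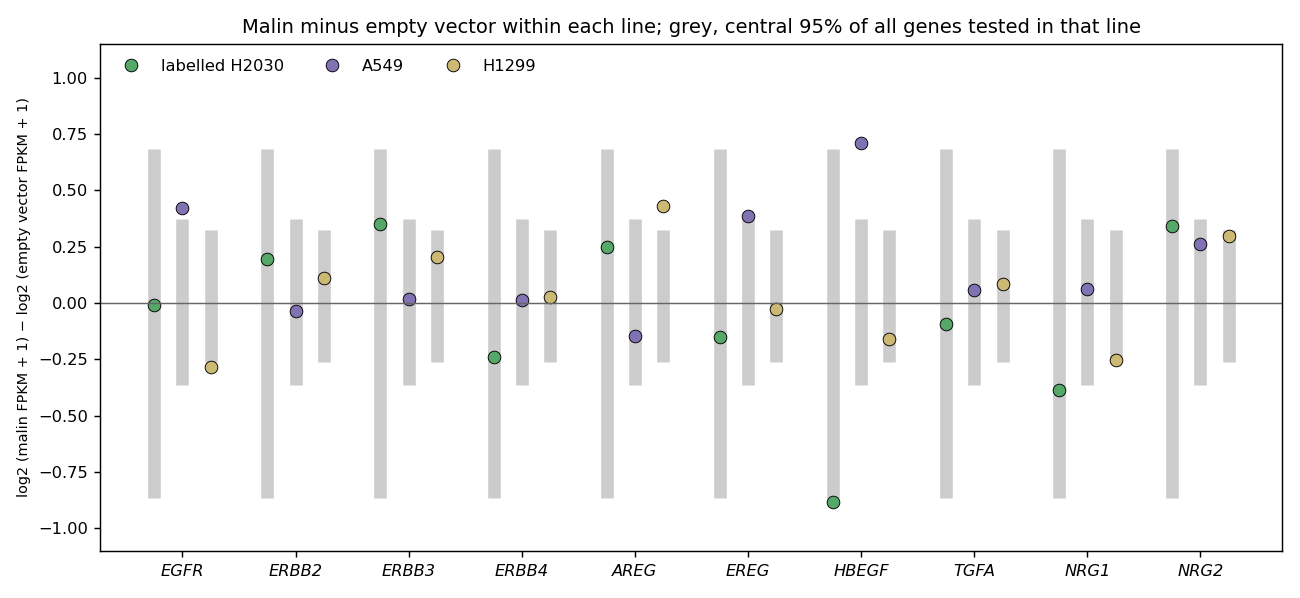
Malin minus empty vector difference of each gene on the log2(FPKM + 1) scale in labelled H2030, A549 and H1299. Grey bars span the central 95% of all genes tested in that line, from -0.86 to 0.69 in labelled H2030, -0.36 to 0.37 in A549 and -0.26 to 0.33 in H1299; HBEGF lies at -0.88 in labelled H2030 and 0.71 in A549.

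Within a line there was 1 library per vector and no test, and a difference past 1.5-fold on the FPKM + 1 scale is described. HBEGF was the only 1 of the 10 genes past it, lower with malin in labelled H2030, where 7.33% of all genes tested were past it in that direction, and higher in A549, where 0.542% were past it as higher and 0.583% as lower. Its levels with malin and empty vector were those given above, an estimated 70 and 124 fragments in labelled H2030 and 79 and 38 in A549. The depth-corrected ratio of malin over empty vector was 0.473 in labelled H2030 (95% exact interval 0.348 to 0.639), 2.04 in A549 (interval 1.37 to 3.09) and 0.885 in H1299 (interval 0.719 to 1.09). The intervals cover counting error only, and the opposite directions were not tested against each other. As the header of the malin library labelled H2030 names another line, vector and line cannot be told apart in that pair. In H1299 no gene of the 10 was past 1.5-fold, where 0.476% of all genes were, and in A549 EREG was 0.39 higher and AREG 0.14 lower with malin. All-gene differences spread with an SD of 0.40 in the pair labelled H2030, 0.18 in A549 and 0.16 in H1299.

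Other genes of the pathway were taken from lists of ligands, shedding and trafficking genes, signalling steps, inhibitors and ERK-induced targets. With malin, 0 genes of any list passed an adjusted p of 0.05. Unless said otherwise, the genes named from each list are those with the widest range between lines, so their levels are given as a description. Beside the counts between lines, the shares of all genes that were higher and lower were 45% and 22.1% for labelled H2030 against A549, 40.9% and 23.8% for labelled H2030 against H1299, and 27.2% and 34.5% for A549 against H1299. Without the malin library labelled H2030, no list's count for labelled H2030 against A549 or against H1299 moved by more than 2 genes, and no such median turned sign. Of the 5 other EGF-family ligand genes none passed the filter on low levels. NRG3 stood at 1.56 and 2.21 FPKM in the malin and empty-vector libraries labelled H2030 and at 0.19 FPKM or less elsewhere, NRG4 at 2.16 and 1.22 FPKM in labelled H2030, and BTC (betacellulin) at 1.42 and 0.56 FPKM in A549. EGF and EPGN were also among them.

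Of the 8 genes for ligand shedding and trafficking, 7 passed the filter. A549 exceeded H1299 in 7 of 7, with a median difference of 0.87, where 27.2% of all genes were higher. Labelled H2030 was lower than A549 in 5 of 7 (median -0.92), where 22.1% of all genes were lower. Labelled H2030 minus H1299 had 2 higher and 4 lower (median -0.45, and -0.72 under median-of-ratios scaling). ADAM10 was 18.16 and 14.86 FPKM in labelled H2030, 58.4 and 52.85 in A549 and 23.69 and 24.75 in H1299 (malin and empty vector). RHBDF2, an inactive rhomboid that helps the sheddase ADAM17 mature, was 3.95 and 2.84 FPKM in labelled H2030, 22.23 and 21.05 in A549 and 12.58 and 10.22 in H1299. With malin, 1 gene of this list was past 1.5-fold within a line, ADAM19 in A549 (6.64 and 3.71 FPKM with malin and empty vector), which was named after its values were seen. Of all genes tested, 0.542% were past it as higher in A549.

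Of 18 adaptor and RAS-ERK genes, labelled H2030 was higher than A549 in 5 and lower in 1 (median 0.19), and higher than H1299 in 5 and lower in 3 (median 0.10). A549 was higher than H1299 in 5 and lower in 4 (median -0.10). Under median-of-ratios scaling the counts for labelled H2030 were 3 higher and 6 lower than A549 (median -0.20) and 5 higher and 5 lower than H1299 (median -0.17). SHC1, an adaptor that docks on activated receptors, was 16.72 and 14.78 FPKM in labelled H2030, 106.43 and 99.66 in A549 and 112.97 and 113.27 in H1299 with malin and empty vector. MAPK3, which encodes ERK1, ran the other way, at 44.9 and 58.6 FPKM in labelled H2030, 13.28 and 14.64 in A549 and 14.32 and 14.82 in H1299. GAB1, a docking protein, was 5.14 and 6.14 FPKM in labelled H2030 and 0.91 to 1.1 FPKM elsewhere.

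The 10 PI3K-AKT genes had 2 higher and 4 lower in labelled H2030 than in A549, 2 higher and 5 lower than in H1299, and in A549 against H1299 2 higher and 7 lower (medians -0.06, -0.29 and -0.72). The first median was -0.39 under median-of-ratios scaling and -0.41 under quantile normalization, and the second -0.54 and -0.58. AKT1 reached 115.82 and 122.42 FPKM in H1299 with malin and empty vector, above the 35.99 to 52.22 FPKM of the other lines. PIK3R3, a regulatory subunit, was 1.57 and 1.72 FPKM in A549 with malin and empty vector and 7.72 to 11.33 FPKM in the other lines, and PIK3CB, a catalytic subunit, was highest in H1299 at 20.01 and 18.42 FPKM. Of 10 other effectors 8 passed the filter, with 3 higher and 4 lower in labelled H2030 than in A549, 3 higher and 2 lower than in H1299, and 4 higher and 1 lower in A549 than in H1299 (medians -0.17, 0.16 and 0.22). The median of labelled H2030 against A549 was -0.53 under median-of-ratios scaling and -0.38 under quantile normalization, and that against H1299 turned to -0.11 under median-of-ratios scaling and to -0.0096 under quantile normalization. SRC, a membrane-linked kinase, reached 54.38 and 62.34 FPKM in A549 with malin and empty vector against 7.84 to 10.33 FPKM elsewhere, and STAT3 reached 55.89 and 56.12 FPKM against 14.62 to 17.44 FPKM elsewhere. STAT5B was lowest in H1299, at 3.94 and 4.15 FPKM.

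Of 15 negative regulators 14 passed the filter, with 6 higher and 5 lower in labelled H2030 than in A549, 6 higher and 2 lower than in H1299, and 6 higher and 2 lower in A549 than in H1299 (medians 0.18, 0.04 and 0.27). Under median-of-ratios scaling the counts for labelled H2030 were 4 higher and 7 lower than A549 (median -0.21) and 5 higher and 4 lower than H1299 (median -0.23), and quantile normalization turned the median against H1299 to -0.10. ERRFI1, which encodes the direct EGFR inhibitor MIG6, was 18.91 and 26.95 FPKM in labelled H2030 with malin and empty vector, 36.65 and 42.54 in A549 and 261.34 and 240.75 in H1299. PTPRJ, a phosphatase, was highest in A549, at 39.98 and 34.59 FPKM, and LRIG3, a transmembrane protein of the LRIG family, was highest in labelled H2030, at 9.59 and 7.71 FPKM.

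The 17 ERK-induced target and feedback genes all passed the filter. In labelled H2030 4 were higher and 11 lower than in A549 (median -2.16), and 2 were higher and 14 lower than in H1299 (median -2.49), where 22.1% and 23.8% of all genes were lower. A549 had 4 higher and 12 lower than H1299 (median -0.83). The medians kept their signs under both scalings. FOSL1, an AP-1 subunit, was 1.31 and 2.09 FPKM in labelled H2030 with malin and empty vector, 56.27 and 38.13 in A549 and 268.98 and 286.11 in H1299. PHLDA1 was 0.67 and 0.55 FPKM in labelled H2030, 34.75 and 34.9 in A549 and 107.95 and 102.37 in H1299, and DUSP4, an ERK phosphatase, was 1.49 and 2.21, 37.09 and 36.63, and 0.04 and 0.09 FPKM in those libraries. The line with the highest ligand sum, A549, was not the line with the highest levels of most of these targets. Any link between ligand messages and these levels was not tested. Within labelled H2030, 1 of the 17 was higher and 4 were lower past 1.5-fold with malin, against 4.28% and 7.33% of all genes tested. Named after their values were seen, they were IER3 (6.91 and 3.98 FPKM with malin and empty vector), which was higher, and ETV5 (0.23 and 1.65), SPRED2 (5.4 and 10.73), DUSP6 (1.05 and 2.4) and EGR1 (1.56 and 3.09), which were lower. None of the 17 was past it in A549 or H1299. In the pair labelled H2030, vector and line cannot be told apart, as the header of its malin library names another line.

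**Figure D5:**
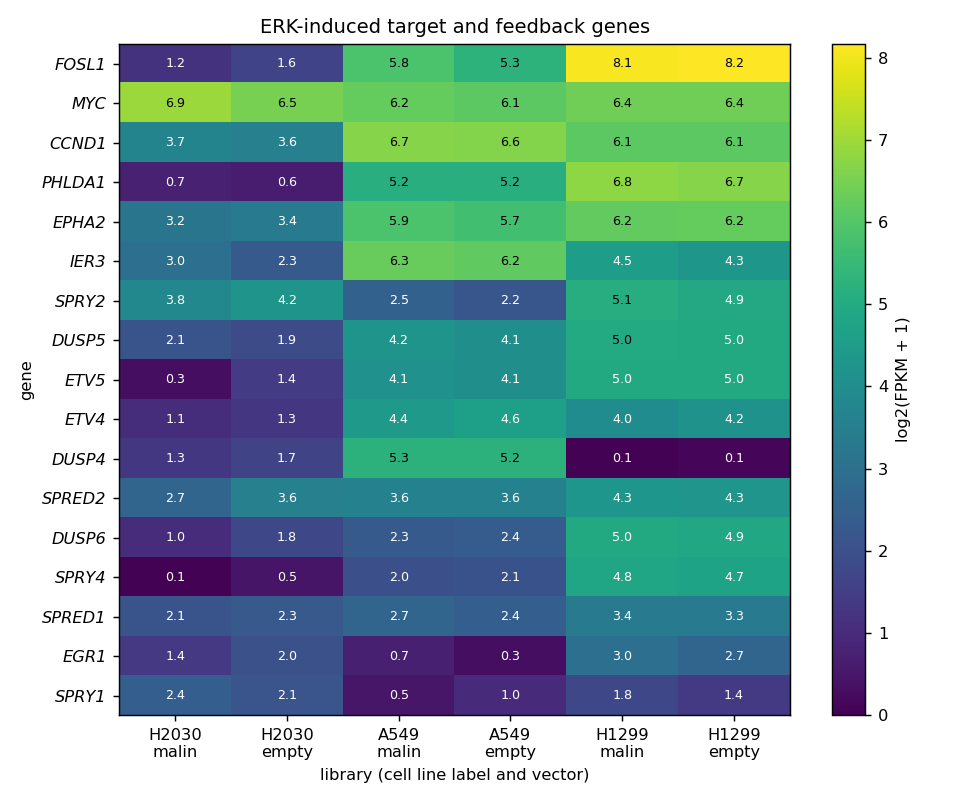
Levels of the 17 ERK-induced target and feedback genes, as log2(FPKM + 1), in each library, with lines as columns (malin left of empty vector) and genes ordered by mean level. FOSL1 and PHLDA1 are lowest in the libraries labelled H2030 and highest in H1299, at 268.98 and 286.11 FPKM for FOSL1 with malin and empty vector.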

How the data were processed

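The authors deposited FPKM per gene, as the headers name the unit, for 6 RNA sequencing libraries. Tools named in the submitters' processing notes, without versions, are STAR, Cufflinks, cutadapt and FastQC, with the build hg38. The sources used here do not say whether strand was used in counting, so antisense and overlapping genes cannot be told apart. Groups followed the vector label and pairs the cell line label. No label says that cultures were independent.

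Of 19903 genes, 17541 were protein coding in RefSeq's GRCh38.p14 table (19770 matched by Entrez identifier, and 35 of 37 blank or date-like symbols were replaced). Genes with a mean of at least 1 FPKM (12184) were fitted with lmFit and a trended eBayes (limma 3.58.1, R 4.3.3) on log2(FPKM + 1), with cell line and vector as terms, and adjusted p was called at 0.05. The residual degrees of freedom were 2 and the median prior 3.9. Sign flips over 3 lines gave exact paired tests. The fit was tested on simulated data. Residuals there were shuffled over genes and libraries, so the spread of each gene and of each line was not kept. That run therefore cannot show how well the p-values hold for these libraries.

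Depth is unknown as counts. Low FPKM of genes with 1 transcript of 600 to 2000 bases, times the length less 100 bases, fell near whole multiples of a step: 77.7% to 80.4% were no more than 0.2 from such a multiple (chance share 40% if the step is fixed; here step and offset came from the same values). Fragment numbers and exact binomial intervals built on it (95%) cover counting error only.

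Alternatives tried were other pseudocounts (0.1 and 5), other filters (none, or a mean of 5 FPKM), all gene classes, median-of-ratios scaling, quantile normalization, no intensity trend, no block or vector term, and leaving out libraries or lines. Within-line alternatives for HBEGF, and those for the pathway lists, were added after the data were seen. Named genes were all 10 members, the 3 genes per list with the widest range of line means (further, any gene of a list called with malin), and the 5 genes most like EGFR and like ERBB3. List genes past 1.5-fold within a line, and cell markers outside the 3 widest, were named after their values were seen. The members and lists were chosen with earlier results of these data known. Tables and plots used Python 3.11.15 with pandas 2.3.3, matplotlib 3.10.9, numpy 2.4.6 and scipy 1.17.1.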

Additional observations from a re-analysis of the deposited data

Results flagged for a closer look

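HBEGF differed between the malin and empty-vector libraries in opposite directions in different lines. On the log2(FPKM + 1) scale it was lower by a difference of -0.8838 in the pair labelled H2030 and higher by 0.7105 in A549. Each line had 1 library per vector, so the difference between the lines was not tested. The header of the malin library labelled H2030 names another line, so vector and line cannot be told apart in that pair. With a pseudocount of 5 both differences were under 1.5-fold.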

How the results depend on the processing

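Of 21 line differences called for the 9 genes, 18 stayed called in the same direction under every alternative run, and ERBB2 (labelled H2030 minus A549), ERBB3 and HBEGF (A549 minus H1299) lost the call under at least 1. ERBB3, NRG2 and TGFA have no value at a mean FPKM of at least 5. HBEGF became called in labelled H2030 minus H1299 under median-of-ratios scaling (-0.96, adjusted p = 0.0455), without either A549 library (-0.72 in each, adjusted p = 0.0374 and 0.037) and without the empty-vector library labelled H2030 (-1.30; adjusted p over all alternatives 0.00268 to 0.651). With malin, no alternative called any of the 9 genes.

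The following turned sign: EREG (-0.3002) and TGFA (-0.0255) with malin at a pseudocount of 0.1, ERBB2 (-0.0275) and NRG2 (-0.0386) in labelled H2030 minus A549 under median-of-ratios scaling, and under quantile normalization NRG2 in the same contrast (-0.4437) and AREG (-0.1165) and EREG (-0.0853) in labelled H2030 minus H1299. Leaving out a line, malin differences ranged from -0.5221 to 0.2751 for HBEGF, from -0.1471 to 0.2066 for EGFR, from -0.0893 to 0.1788 for EREG, from -0.0166 to 0.0714 for TGFA. Leaving out a library, labelled H2030 minus H1299 ranged from -0.1320 to 0.1974 for EREG and from -0.0057 to 0.3738 for AREG. The cause was not tested.

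Calls over all genes ranged from 0 to 1 with malin when a line was left out (1 without labelled H2030), from 5227 to 8983 for labelled H2030 minus H1299 and from 4564 to 9393 for A549 minus H1299 when a library was left out; the cause was not tested. Without the cell line block, malin calls were also 0. Median-of-ratios scaling moved the all-gene median by -0.34 for labelled H2030 minus A549 and -0.25 for labelled H2030 minus H1299, and the calls split into 3621 higher and 4309 lower (5478 and 2689 as deposited) and 3634 higher and 4071 lower (4982 and 2895 as deposited). Quantile normalization gave 4214 higher and 3460 lower, and 3974 higher and 3517 lower. Within a line, a pseudocount of 5 gave HBEGF differences of -0.51 in labelled H2030 and 0.33 in A549, under 1.5-fold. Depth limits AREG, EREG and ERBB4 outside A549 or labelled H2030.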
